A study of Caenorhabditis elegans with 16 samples.

Results

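Fatty acids are burned in steps that the gene names of *C. elegans* follow closely. Fatty acid binding proteins (*lbp*) carry the acid, acyl-CoA synthetases (*acs*) activate it to its coenzyme A ester, and carnitine palmitoyltransferases (*cpt*) move the ester into mitochondria. There acyl-CoA dehydrogenases (*acdh*), enoyl-CoA hydratases (*ech*), hydroxyacyl-CoA dehydrogenases (*hacd*) and thiolases (*kat*) repeat the cycle that shortens the chain. Peroxisomes run a parallel cycle that worms use to trim the side chains of ascaroside pheromones. Some *acdh* and *ech* members serve the breakdown of propionate and branched-chain amino acids instead.

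The genes described here are the rows of the gene count table whose name consists of *lbp*, *acs*, *cpt*, *acdh*, *ech*, *hacd* or *kat* and a number. They number 60 of the 42048 rows, with 9 *lbp*, 21 *acs*, 6 *cpt*, 13 *acdh*, 9 *ech*, 1 *hacd* and 1 *kat* gene, and the step of each was taken from its name alone. Of these, 54 had enough reads for testing. The other 6 (*acs-10*, *acs-15*, *acs-18*, *acdh-5*, *acdh-6* and *acdh-8*) never had more than 8 reads in a library. T08B2.7, today also named *ech-1.2*, and C32E8.6, today *acs-24*, are listed under sequence names and so fall outside the set.

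RNA was sequenced from whole worms in 4 groups of 4 biological replicates. *syp-2::AID* worms, which carry an auxin-inducible degron on the synaptonemal complex protein SYP-2 and the *ieSi38* transgene for the F-box protein TIR1 under the germline promoter of *sun-1*, spent 4 h either on auxin (4 mM in the plates) or on control plates. Wild-type N2 worms, which have neither the degron nor TIR1, went through the same pair of conditions. All worms were young adults, 18 to 24 h past the L4 larval stage when placed on the plates, fed *E. coli* OP50 at 20 °C, and each replicate was a pool of worms. What the control plates held in place of auxin is not given in the sources used here. The degron acts in the germline, whereas a whole worm mixes all tissues, so fewer cells of a type and less RNA per cell cannot be told apart.

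Libraries held 13964761 to 18741524 counted reads, with a median of 15878215. A pair of libraries stood apart, *syp-2::AID* with auxin, replicates 3 and 4. Across 11457 genes, Spearman's rho between a library's deviation from the mean of all libraries and exon length was -0.545 and -0.626 in these replicates, against 0.051 to 0.284 in the other libraries. The families sit at different places on that scale, since exon length ranged over 481 to 759 bases in *lbp* members and 1620 to 2892 bases in *acs* members. Summed over the *lbp* family, replicates 3 and 4 had 2411 and 2619 CPM (reads relative to the TMM-adjusted library total), against 1613 and 1568 in auxin replicates 1 and 2 and 1539 to 1678 without auxin. Summed over the *acs* family they had 1875 and 1632 CPM, against 2367 and 2424 in replicates 1 and 2 and 2204 to 2320 without auxin. Results of members called in *syp-2::AID* worms are therefore given without these libraries as well, and those of other members where the value moved. Markers of the main tissues were detected throughout. The 11 intestinal markers tested summed to 26700 to 38700 CPM in auxin-treated and 41700 to 47500 CPM in untreated *syp-2::AID* worms, and to 37300 to 42500 CPM in auxin-treated and 44200 to 51500 CPM in untreated N2 worms. Of these markers, 2 rose and 1 fell in *syp-2::AID* worms and 2 fell in N2 worms, and their part in the results was not tested. Of 7 body wall muscle markers 1 fell in *syp-2::AID* worms, where they summed to 2320 to 4060 CPM with auxin and 3430 to 4620 CPM without, and of 6 hypodermal markers 1 fell in N2 worms, where they summed to 1620 to 2120 CPM with auxin and 1750 to 2730 CPM without. Of 9 germline markers (3140 to 4620 CPM in auxin-treated and 4250 to 5050 CPM in untreated *syp-2::AID* worms) and 8 neuronal markers, 0 passed in either strain. Of 9 early embryo markers that could be tested, 1 rose in N2 worms and 0 passed in *syp-2::AID* worms, where the list, of which 1 gene had no read, summed to as little as 67.8 CPM with auxin, all auxin libraries lying below the 124 to 140 CPM without. In N2 worms the list went the other way, with sums of 121 to 156 CPM with auxin and 108 to 120 CPM without. Of 9 sperm markers, 1 had no read and 2 could be tested, of which 0 passed in either strain.

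To ask what the auxin plates did to these genes, auxin-treated worms were compared with untreated worms of the same strain. In both strains a minority of members changed, most of them upward, and they came from nearly every step. In *syp-2::AID* worms 19 of 54 members rose and 2 fell (edgeR quasi-likelihood test with Benjamini-Hochberg adjustment over all 11776 genes tested, adjusted p under 0.05). That is 35.2% and 3.70% of the members, where 5.27% of all genes tested rose and 1.93% fell. In N2 worms 12 rose and 2 fell, or 22.2% and 3.70%, where 3.99% of all genes rose and 1.44% fell. The median log2 fold change of the members was 0.271 in *syp-2::AID* worms, against 0.0327 over all genes, and 0.25 in N2 worms, against 0.0135. In this fit all 14 members called in N2 worms were also called in *syp-2::AID* worms, and the 21 called in either strain had the same sign in both. The same overlap was not counted over all genes, and it depended on the fit. With only the groups compared, 22 members were called in N2 worms and 14 in *syp-2::AID* worms, where 11.1% and 3.48% of all genes were called. *acdh-7* and *acdh-12* were then among those called in N2 worms only. The p-values set each change against the spread among 4 biological replicates a group, estimated jointly over all 16 libraries and with information shared among genes. Without replicates 3 and 4, 17 rose and 2 fell in *syp-2::AID* worms, and in N2 worms, whose test shares the estimate of the spread, 19 rose and 4 fell. In that fit 3.64% of all genes were called in *syp-2::AID* worms and 12.9% in N2 worms. With a minimum count of 1 or only the groups compared in the fit, *acs-5*, *acs-12*, *cpt-2*, *cpt-4*, *acdh-12* and *ech-4* lost their calls in *syp-2::AID* worms, as did *acdh-7* in the fit of only the groups compared (adjusted p = 0.062 to 0.153, edgeR). The minimum count of 1 kept every gene with at least 1 read over all libraries, so the adjustment ran over 20234 genes.

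**Figure D1:**
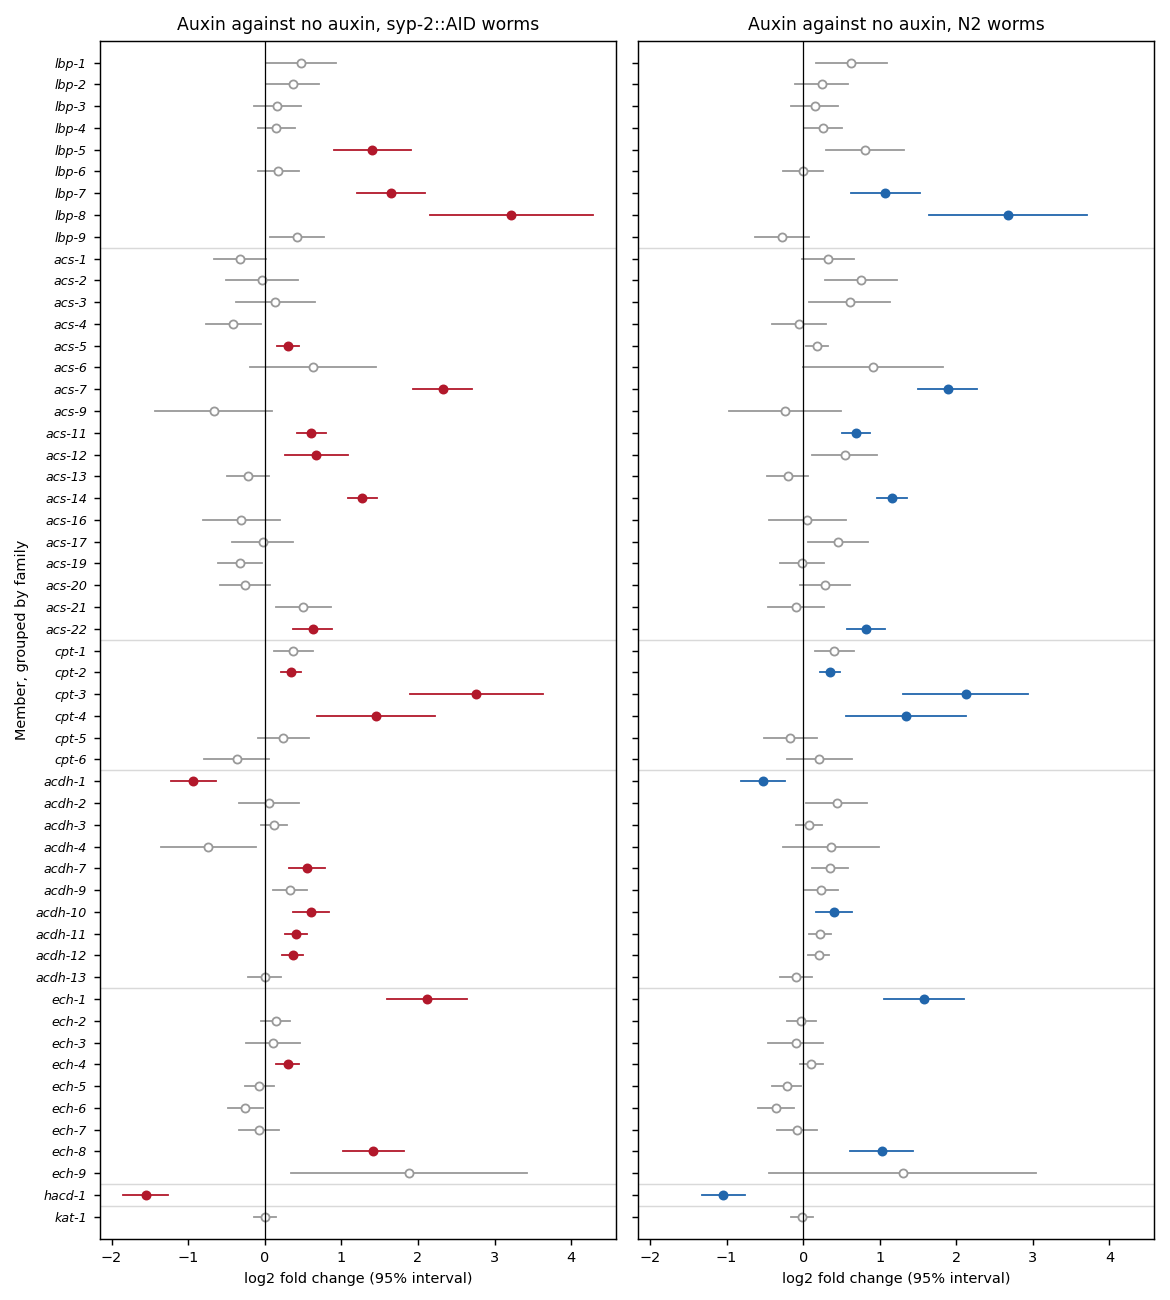
Log2 fold change of auxin-treated over untreated worms for the 54 members tested, in *syp-2::AID* worms (left) and N2 worms (right), with 95% intervals from edgeR. Members are grouped by family, and filled points passed the test. The largest increases were in *lbp-8* (3.22 and 2.67), *cpt-3* (2.76 and 2.12) and *acs-7* (2.33 and 1.89), and *hacd-1* had the largest decrease (-1.56 and -1.04).

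Among the fatty acid binding proteins, auxin raised *lbp-8*, *lbp-7* and, in *syp-2::AID* worms, *lbp-5*, which are minor members of the family. *lbp-8* encodes a lysosomal lipid chaperone. Its level was 0.801, 1.14, 1.89 and 1.74 CPM in auxin-treated *syp-2::AID* worms, against 0.182, 0.157, 0.108 and 0.120 CPM in untreated worms. In N2 worms it was 1.36, 0.995, 1.56 and 1.46 CPM with auxin, against 0.00, 0.269, 0.148 and 0.401 CPM without. The groups did not overlap in either strain, although the untreated libraries held only 0 to 6 reads each. The log2 fold change was 3.22 ± 0.50 (SE) in *syp-2::AID* worms (adjusted p = 0.000467, edgeR) and 2.67 ± 0.49 in N2 worms (adjusted p = 0.00263, edgeR). Without replicates 3 and 4 it was 2.71 in *syp-2::AID* worms (adjusted p = 0.00925, edgeR).

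*lbp-7* had 15.9, 13.6, 25.9 and 29.3 CPM in auxin-treated *syp-2::AID* worms, against 6.18, 6.22, 6 and 8.56 CPM in untreated worms. In N2 worms it had 12.8, 13.8, 13.7 and 14.1 CPM with auxin, against 7.12, 5.58, 6.58 and 6.55 CPM without. Every auxin library was above every untreated library, and the log2 fold changes were 1.65 ± 0.21 and 1.07 ± 0.21 (adjusted p = 5.7e-05 and 0.0045, edgeR). The 2 highest values belonged to the libraries that stood apart, and without them the change in *syp-2::AID* worms was 1.13. *lbp-5* reached 24.4, 20.0, 46.3 and 49.8 CPM in auxin-treated *syp-2::AID* worms, against 13.6, 11.3, 12.7 and 15.4 CPM in untreated worms, a log2 fold change of 1.4 ± 0.24 (adjusted p = 0.00104, edgeR). Here the same libraries set much of the size, since the change was 0.75 (adjusted p = 0.00694, edgeR) without them, while the fold change was 2.64 as measured and 2.01 with the length trend removed. In N2 worms *lbp-5* had 23.9, 21.4, 19.6 and 19.3 CPM with auxin, against 13.7, 13.7, 10.6 and 9.82 CPM without. These groups did not overlap either, but the change of 0.81 ± 0.24 missed the threshold (adjusted p = 0.0600, edgeR). It passed without any 1 of the *syp-2::AID* auxin replicates or without replicates 3 and 4 together, and with DESeq2, a minimum count of 1, only the groups compared or the length trend removed (log2 0.79 to 0.82, adjusted p = 0.000622 to 0.0486). The family's most abundant member, *lbp-9*, averaged 1091 ± 343 CPM in auxin-treated and 817 ± 85.2 CPM in untreated *syp-2::AID* worms, and 906 ± 54.3 CPM in auxin-treated and 1095 ± 94.8 CPM in untreated N2 worms (SD, n = 4 each), and passed in neither strain. In auxin-treated *syp-2::AID* worms it had 798 and 789 CPM in replicates 1 and 2 and 1381 and 1395 CPM in the libraries that stood apart. Its log2 fold change there was 0.42, and -0.04 without those libraries, and it passed without replicate 1 or replicate 2 (0.54 each). In N2 worms its change of -0.27 passed without the libraries that stood apart (adjusted p = 0.0355, edgeR) and with only the groups compared (adjusted p = 0.0441, edgeR). The secreted proteins *lbp-1*, *lbp-2* and *lbp-3*, together with *lbp-6*, had log2 fold changes of 0.16 to 0.47 in *syp-2::AID* worms and -0.01 to 0.63 in N2 worms and did not pass. The 4 changes in *syp-2::AID* worms were -0.11 to 0.21 without replicates 3 and 4. In N2 worms *lbp-1* passed without N2 untreated replicate 4 (0.80) and with the length trend removed (0.625). The 3 members *lbp-5*, *lbp-7* and *lbp-8* made up 2.21 to 3.09% of the family's CPM in auxin-treated and 1.14 to 1.56% in untreated *syp-2::AID* worms, and 2.05 to 2.39% in auxin-treated and 0.943 to 1.16% in untreated N2 worms.

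At the activation to acyl-CoA 6 of 18 tested members rose in *syp-2::AID* worms and 4 in N2 worms. *acs-7*, a peroxisomal synthetase that activates ascaroside side chains, had 35.4, 31.1, 53.3 and 53.5 CPM in auxin-treated *syp-2::AID* worms, against 8.24, 7.43, 8.98 and 9.88 CPM in untreated worms. N2 worms had 34.9, 32.3, 33.2 and 23.1 CPM with auxin, against 8.24, 8.47, 8.87 and 7.82 CPM without. All auxin libraries lay far above all untreated libraries in both strains. The fold change was 5.01 in *syp-2::AID* worms (log2 2.33 ± 0.18, adjusted p = 2.37e-07, edgeR) and 3.70 in N2 worms (log2 1.89 ± 0.18, adjusted p = 3.74e-06, edgeR). Without replicates 3 and 4 the log2 change in *syp-2::AID* worms was 1.95.

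*acs-14*, named as an acyl-CoA synthetase, rose with little spread among replicates. Auxin-treated *syp-2::AID* worms had 53.5, 53.2, 58.4 and 54.6 CPM, against 22.6, 22, 24.6 and 22 CPM in untreated worms, and auxin-treated N2 worms had 45.1, 45.4, 46.0 and 43.0 CPM, against 18.5, 18.4, 19.5 and 24.2 CPM. The fold change was 2.41 (adjusted p = 8.72e-08, edgeR) and 2.23 (adjusted p = 3.6e-07, edgeR), with a log2 change in *syp-2::AID* worms of 1.27, and of 1.23 without the libraries that stood apart. *acs-22*, which encodes a relative of the fatty acid transport proteins, averaged 108 ± 6.60 CPM in auxin-treated and 69.7 ± 3.96 CPM in untreated *syp-2::AID* worms, and 117 ± 19 CPM in auxin-treated and 66.2 ± 10.0 CPM in untreated N2 worms (SD, n = 4 each). *acs-11* averaged 80.3 ± 3.82 and 52.7 ± 5.31 CPM in auxin-treated and untreated *syp-2::AID* worms, and 84.9 ± 5.32 and 52.6 ± 5.04 CPM in auxin-treated and untreated N2 worms (SD, n = 4 each). These 2 genes rose by 0.62 and 0.61 on the log2 scale in *syp-2::AID* worms and by 0.82 and 0.69 in N2 worms, with groups that did not overlap, and by 0.62 and 0.59 in *syp-2::AID* worms without replicates 3 and 4.

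Smaller increases were called in *syp-2::AID* worms for a further pair of synthetases. *acs-5* averaged 152 ± 8.59 CPM with auxin and 123 ± 3.63 CPM without (log2 0.31, adjusted p = 0.0101, edgeR), and *acs-12* averaged 9.37 ± 0.603 CPM with auxin and 5.88 ± 1.57 CPM without (log2 0.67, adjusted p = 0.0464, edgeR; SD, n = 4 each). The call of *acs-12* is fragile. It was lost without any 1 of *syp-2::AID* auxin replicates 3 and 4, *syp-2::AID* untreated replicates 1, 2 and 3, N2 auxin replicates 1 and 3 or N2 untreated replicates 1, 2 and 3, with log2 fold changes of 0.51 to 0.77 (adjusted p = 0.0516 to 0.121, edgeR). It was also lost without both auxin replicates 3 and 4 (0.68, adjusted p = 0.159, edgeR), where *acs-5* stood at 0.37. In N2 worms the changes were 0.19 for *acs-5* and 0.54 for *acs-12*, and neither passed. *acs-5* passed in N2 worms without *syp-2::AID* auxin replicates 3 and 4 (adjusted p = 0.0291, edgeR). The remaining 12 tested *acs* members did not pass in *syp-2::AID* worms, with log2 fold changes of -0.67 to 0.63. Among them *acs-21* passed there without auxin replicate 1 (0.57) or replicate 2 (0.54). *acs-3* passed in N2 worms without N2 untreated replicate 4 (0.86, adjusted p = 0.0479, edgeR). Both are named here after their values were seen. The most abundant, *acs-13*, averaged 608 ± 116 CPM in auxin-treated and 708 ± 81.2 CPM in untreated *syp-2::AID* worms, and 785 ± 58.5 CPM in auxin-treated and 904 ± 80.3 CPM in untreated N2 worms (SD, n = 4 each). *acs-2*, the mitochondrial synthetase known to respond to fasting, did not pass in either strain. It had 97.6, 75.1, 55.7 and 74.5 CPM in auxin-treated *syp-2::AID* worms, against 75.6, 62.0, 81.2 and 92.1 CPM without auxin, and 96.1, 80.8, 77.7 and 53.4 CPM in auxin-treated N2 worms, against 50.1, 28.5, 40.3 and 63.0 CPM without. The groups overlapped in both strains, and the log2 fold changes were -0.04 (95% interval -0.505 to 0.432) and 0.76 (0.285 to 1.23, adjusted p = 0.0601, edgeR). *acs-2* stood at 0.15 and *acs-13* at -0.03 in *syp-2::AID* worms without replicates 3 and 4. *acs-2* passed in N2 worms without N2 auxin replicate 4 (0.90), N2 untreated replicate 4 (0.96) or *syp-2::AID* auxin replicate 3 (0.76), with DESeq2 (0.75) and with the length trend removed (0.72). *acs-1*, *acs-4* and *acs-19*, of which *acs-1* activates branched-chain fatty acids, had changes of -0.32, -0.41 and -0.33 in *syp-2::AID* worms and 0.32, -0.05 and -0.01 in N2 worms. The lower values in *syp-2::AID* worms were those of the libraries that stood apart. *acs-1* had 236, 231, 137 and 126 CPM with auxin, against 216 to 236 CPM without. *acs-4* had 441, 468, 290 and 224 CPM with auxin, against 446 to 502 CPM without, and *acs-19* had 402, 433, 284 and 245 CPM, against 398 to 454 CPM. These changes were 0.03, -0.06 and -0.04 without replicates 3 and 4, whereas without replicate 1 (-0.47, -0.53 and -0.42) or replicate 2 (-0.46, -0.57 and -0.46) all 3 genes passed. In N2 worms *acs-1* passed without replicates 3 and 4 of the other strain (0.32, adjusted p = 0.00254, edgeR) and with only the groups compared (0.33, adjusted p = 0.0113, edgeR).

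**Figure D2:**
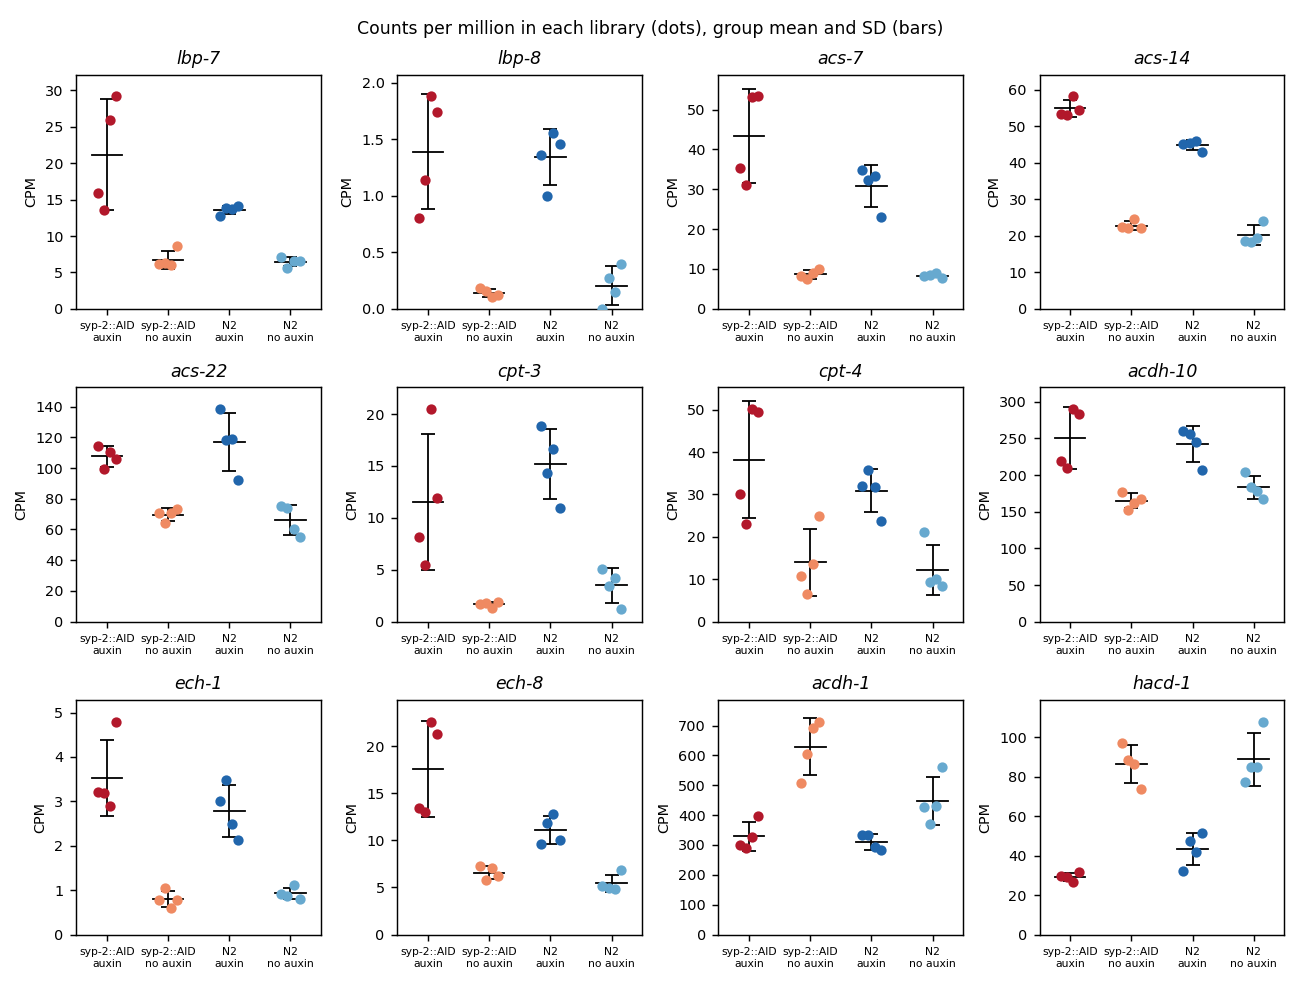
CPM in each library (dots) of 10 members that rose and 2 that fell in both strains, with the mean and SD of the 4 libraries of a group (lines and bars). Each panel starts at 0, and the groups run from auxin-treated and untreated *syp-2::AID* worms to auxin-treated and untreated N2 worms. Auxin and untreated libraries are separate in every panel except *cpt-4* in *syp-2::AID* worms, where an untreated library (25 CPM) was above an auxin library (22.9 CPM).

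In the carnitine shuttle 3 of 6 members rose in each strain. *cpt-2*, the inner-membrane enzyme, rose evenly to 192, 189, 185 and 178 CPM in auxin-treated *syp-2::AID* worms, against 143, 154, 145 and 146 CPM in untreated worms, and to 181, 179, 175 and 173 CPM in auxin-treated N2 worms, against 142, 146, 139 and 130 CPM. The groups were separate, and the fold change was 1.27 in both strains (adjusted p = 0.00205 and 0.00226, edgeR), and 1.3 in *syp-2::AID* worms without replicates 3 and 4. *cpt-1*, the outer-membrane enzyme and the most abundant *cpt* gene, averaged 318 ± 44.1 CPM in auxin-treated and 246 ± 21.7 CPM in untreated *syp-2::AID* worms, and 416 ± 36.9 CPM in auxin-treated and 313 ± 47.4 CPM in untreated N2 worms (SD, n = 4 each). Its log2 fold changes of 0.37 and 0.41 were as large as those of *cpt-2*, but the spread was wider and neither passed (adjusted p = 0.0714 and 0.0613, edgeR). In *syp-2::AID* worms *cpt-1* passed without replicates 3 and 4 (0.48, adjusted p = 0.0272, edgeR), without replicate 4 alone (0.46, adjusted p = 0.0208, edgeR) and with the length trend removed (0.57, adjusted p = 0.00228, edgeR). It passed in N2 worms under 8 of 24 alternatives, among them the same 3 (adjusted p = 0.013, 0.0263 and 0.0494, edgeR) and those without N2 auxin replicate 4 (0.46) or N2 untreated replicate 1 (0.50).

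The remaining *cpt* genes are relatives with low levels. *cpt-3* had 8.18, 5.47, 20.5 and 11.9 CPM in auxin-treated *syp-2::AID* worms, against 1.70, 1.83, 1.35 and 1.86 CPM in untreated worms, a fold change of 6.79 (log2 2.76 ± 0.41, adjusted p = 0.000267, edgeR). Its level in N2 worms was 18.8, 14.3, 16.6 and 11 CPM with auxin, against 5.1, 3.43, 4.21 and 1.2 CPM without, a fold change of 4.36 (log2 2.12 ± 0.39, adjusted p = 0.00249, edgeR). The groups did not overlap, and without replicates 3 and 4 the fold change in *syp-2::AID* worms was 4.05 (adjusted p = 0.00423, edgeR). *cpt-4* was more scattered. It had 30.2, 22.9, 50.2 and 49.4 CPM in auxin-treated *syp-2::AID* worms, against 10.7, 6.64, 13.7 and 25 CPM in untreated worms, which overlapped (log2 1.45 ± 0.36, adjusted p = 0.0225, edgeR, exact permutation p = 0.0571). The N2 libraries had 32.1, 35.8, 31.9 and 23.8 CPM with auxin, against 21.1, 9.28, 9.98 and 8.35 CPM without, which did not overlap (log2 1.34 ± 0.37, adjusted p = 0.0420, edgeR). Both calls of *cpt-4* were fragile. In *syp-2::AID* worms it was lost on dropping any 1 of untreated replicates 1, 2 and 3 and auxin replicates 3 and 4 (log2 1.21 to 1.44, adjusted p = 0.0648 to 0.0855, edgeR), and without both replicates 3 and 4 the change was 0.93 (adjusted p = 0.491, edgeR). In N2 worms it was lost without any 1 of N2 auxin replicates 1, 2 and 3, N2 untreated replicates 2, 3 and 4, *syp-2::AID* auxin replicate 1 or *syp-2::AID* untreated replicates 1 and 3 (log2 1.2 to 1.34, adjusted p = 0.0505 to 0.133, edgeR), and with the length trend removed (1.3, adjusted p = 0.075, edgeR). *cpt-5* and *cpt-6* did not pass in either strain, with changes of 0.24 and -0.37 in *syp-2::AID* worms and -0.17 and 0.21 in N2 worms. Summed over the 6 genes, the family stood at 571 ± 43.7 CPM in auxin-treated and 427 ± 27.1 CPM in untreated *syp-2::AID* worms, and at 654 ± 50.4 CPM in auxin-treated and 483 ± 56.6 CPM in untreated N2 worms (SD, n = 4 each), with no overlap in either strain.

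At the first dehydrogenation, members moved in opposite directions. *acdh-1*, which acts in the propionate shunt and is a branched-chain dehydrogenase by sequence, fell to 301, 291, 327 and 398 CPM in auxin-treated *syp-2::AID* worms, against 508, 606, 693 and 714 CPM in untreated worms. In N2 worms it fell to 334, 332, 293 and 284 CPM with auxin, against 426, 371, 430 and 560 CPM without. All auxin libraries lay below all untreated ones in each strain, and the log2 fold changes were -0.94 ± 0.14 (adjusted p = 0.000278, edgeR) and -0.52 ± 0.14 (adjusted p = 0.0348, edgeR), with -1.09 in *syp-2::AID* worms without replicates 3 and 4. The call in N2 worms was lost without any 1 of N2 auxin replicates 1, 3 and 4 and N2 untreated replicates 1, 3 and 4 (log2 -0.56 to -0.40, adjusted p = 0.0562 to 0.102, edgeR). *acdh-1* made up 20.0 to 23.3% of the family's CPM in auxin-treated and 34.5 to 42.2% in untreated *syp-2::AID* worms, and 20.2 to 22.1% in auxin-treated and 27.9 to 37% in untreated N2 worms.

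Other acyl-CoA dehydrogenases rose instead, by small amounts. *acdh-10* and *acdh-7* resemble the medium-chain enzyme of mammals. *acdh-10* had 220, 210, 291 and 284 CPM in auxin-treated *syp-2::AID* worms, against 177, 152, 162 and 168 CPM in untreated worms (log2 0.61 ± 0.11, adjusted p = 0.00226, edgeR), and 260, 256, 245 and 207 CPM in auxin-treated N2 worms, against 204, 183, 179 and 167 CPM (log2 0.40 ± 0.11, adjusted p = 0.0462, edgeR). The groups were separate in both strains. In *syp-2::AID* worms the log2 change was 0.38 without replicates 3 and 4 (adjusted p = 0.0236, edgeR). In N2 worms the call was lost without any 1 of N2 auxin replicates 1, 2 and 3, N2 untreated replicates 2, 3 and 4 or *syp-2::AID* untreated replicates 1, 2, 3 and 4 (log2 0.33 to 0.40, adjusted p = 0.0559 to 0.188, edgeR). *acdh-7* averaged 209 ± 38.8 CPM in auxin-treated and 142 ± 9.11 CPM in untreated *syp-2::AID* worms (SD, n = 4 each), where it rose by 0.55 on the log2 scale, and by 0.32 without replicates 3 and 4 (adjusted p = 0.00439 and 0.0379, edgeR). *acdh-12*, which resembles the very-long-chain enzyme, averaged 293 ± 12.8 CPM with auxin and 228 ± 6.93 CPM without, and *acdh-11*, known for adjusting membrane lipids to heat, averaged 92.4 ± 5.19 and 69.7 ± 2.36 CPM in the same groups (SD, n = 4 each). These rose by 0.36 and 0.41 on the log2 scale (adjusted p = 0.00129 and 0.00099, edgeR), and by 0.41 and 0.38 without replicates 3 and 4. In N2 worms *acdh-7*, *acdh-11* and *acdh-12* had changes of 0.35, 0.22 and 0.20 with no overlap between the groups, and missed the threshold (adjusted p = 0.0807, 0.0719 and 0.0748, edgeR). Each of them passed in N2 worms with DESeq2 (adjusted p = 0.0208 to 0.035, DESeq2). Each also passed there with only the groups compared and without *syp-2::AID* auxin replicates 3 and 4 (adjusted p = 0.00293 to 0.0315, edgeR). The other tested members did not pass in either strain. *acdh-3*, *acdh-9*, *acdh-13* and *acdh-4* had log2 fold changes of 0.12, 0.33, -0.00 and -0.74 in *syp-2::AID* worms and 0.08, 0.24, -0.09 and 0.36 in N2 worms. In *syp-2::AID* worms *acdh-9* passed without auxin replicate 2 or N2 untreated replicate 4 (0.32 and 0.33), and *acdh-4* without auxin replicate 1 (-0.97). These 2 stood at 0.38 and -0.71 without replicates 3 and 4, and *acdh-3* and *acdh-13* at -0.02 and 0.09. *acdh-2* averaged 40.8 ± 4.12 CPM in auxin-treated and 39.3 ± 6.87 CPM in untreated *syp-2::AID* worms. Its means in N2 worms were 27.6 ± 2.49 CPM with auxin and 20.4 ± 7.19 CPM without (SD, n = 4 each). It passed in N2 worms without N2 untreated replicate 4 (0.70, adjusted p = 0.0104, edgeR).

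Among the hydratases, *ech-1* and *ech-8* rose in both strains. The row named *ech-1* could not be tied to a gene of the current annotation, so no length is given for it. It had 3.21, 3.18, 2.90 and 4.80 CPM in auxin-treated *syp-2::AID* worms, against 0.788, 1.05, 0.595 and 0.778 CPM in untreated worms, and 3.01, 3.48, 2.49 and 2.13 CPM in auxin-treated N2 worms, against 0.915, 0.874, 1.11 and 0.802 CPM. The groups were far apart, with fold changes of 4.35 (adjusted p = 2.11e-05, edgeR) and 2.99 (adjusted p = 0.000651, edgeR), and 3.94 in *syp-2::AID* worms without replicates 3 and 4. The gene that carries the name *ech-1.2* today, T08B2.7, did not pass, at 466 ± 64.2 CPM in auxin-treated and 447 ± 9.94 CPM in untreated *syp-2::AID* worms, and 514 ± 26.2 CPM in auxin-treated and 436 ± 23.5 CPM in untreated N2 worms (SD, n = 4 each). *ech-8*, a relative of the peroxisomal bifunctional enzyme, had 13.4, 13, 22.6 and 21.3 CPM in auxin-treated *syp-2::AID* worms, against 7.27, 5.81, 7.03 and 6.17 CPM in untreated worms (log2 1.42 ± 0.19, adjusted p = 0.000101, edgeR). Among N2 worms it stood at 9.66, 11.9, 12.8 and 10.1 CPM with auxin, against 5.16, 4.98, 4.80 and 6.81 CPM without (log2 1.03 ± 0.19, adjusted p = 0.0036, edgeR). Auxin libraries were higher throughout, those of replicates 3 and 4 most of all, and without these the change in *syp-2::AID* worms was 1.01 (adjusted p = 0.000782, edgeR).

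A smaller rise was called for *ech-4* in *syp-2::AID* worms, to 155 ± 9.66 CPM with auxin, against 126 ± 3.85 CPM without (SD, n = 4 each, log2 0.30, adjusted p = 0.0176, edgeR). It did not hold without replicates 3 and 4 (0.22, adjusted p = 0.102, edgeR), after removing the length trend (0.21, adjusted p = 0.0745, edgeR), or without any 1 of *syp-2::AID* auxin replicate 3 and untreated replicates 2 and 3 (0.27 to 0.29, adjusted p = 0.0582 to 0.0653, edgeR). *ech-6*, the family's most abundant member and a short-chain hydratase that serves the propionate shunt, averaged 468 ± 53.7 CPM in auxin-treated and 558 ± 29.5 CPM in untreated *syp-2::AID* worms, and 429 ± 40.1 CPM in auxin-treated and 550 ± 77.8 CPM in untreated N2 worms (SD, n = 4 each). Its log2 fold changes of -0.26 and -0.36 missed the threshold (adjusted p = 0.139 and 0.0724, edgeR). *ech-6* in *syp-2::AID* worms stood at -0.39 without replicates 3 and 4 (adjusted p = 0.0684, edgeR) and passed with DESeq2 (-0.30) and with the length trend removed (-0.42). The N2 call was gained under 7 of 24 alternatives, among them those without N2 auxin replicate 2 (-0.44), without *syp-2::AID* auxin replicate 4 (-0.36) and without replicates 3 and 4 (-0.36). *ech-2*, *ech-3*, *ech-5* and *ech-7* had changes of -0.08 to 0.14 in *syp-2::AID* worms and -0.22 to -0.03 in N2 worms, and without replicates 3 and 4 *ech-7* stood at -0.355 in *syp-2::AID* worms (adjusted p = 0.0566, edgeR) and with the length trend removed it passed there (-0.32). *ech-9*, named here after its values were seen, had a wide spread, with 0.286, 4.13, 2.46 and 0.834 CPM in auxin-treated *syp-2::AID* worms, against 0.424, 0.209, 0.325 and 1.14 CPM without auxin, and overlapped between groups in both strains (log2 1.88 ± 0.73 and 1.3 ± 0.82). It passed in *syp-2::AID* worms without auxin replicate 1 (2.25, adjusted p = 0.0275, edgeR).

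The genes named for the last 2 steps of the cycle differed from each other. *hacd-1* is the single member of the set that carries the *hacd* name, and members of other names were not assigned to this step. It had 29.8, 29.4, 26.6 and 31.6 CPM in auxin-treated *syp-2::AID* worms, against 97.0, 88.3, 86.3 and 73.7 CPM in untreated worms. In N2 worms it had 32.4, 47.3, 41.9 and 51.3 CPM with auxin, against 77.1, 85.1, 85.2 and 108 CPM without. No library overlapped, and the level with auxin was 0.340 times that without in *syp-2::AID* worms (log2 -1.56 ± 0.14, adjusted p = 1.06e-06, edgeR) and 0.486 times in N2 worms (log2 -1.04 ± 0.14, adjusted p = 9.18e-05, edgeR). Without replicates 3 and 4 the log2 change in *syp-2::AID* worms was -1.54. *kat-1*, a thiolase and the single member with the *kat* name, had 358, 355, 336 and 348 CPM in auxin-treated *syp-2::AID* worms, against 343, 338, 346 and 365 CPM without, and 322, 348, 329 and 324 CPM in auxin-treated N2 worms, against 360, 319, 323 and 338 CPM without. The groups overlapped, with log2 fold changes of 0.00 (95% interval -0.136 to 0.145) and -0.02 (-0.159 to 0.123). In exact two-sided permutation tests of single members, groups that did not overlap gave p = 0.0286, the smallest that 4 against 4 libraries allow.

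**Figure D3:**
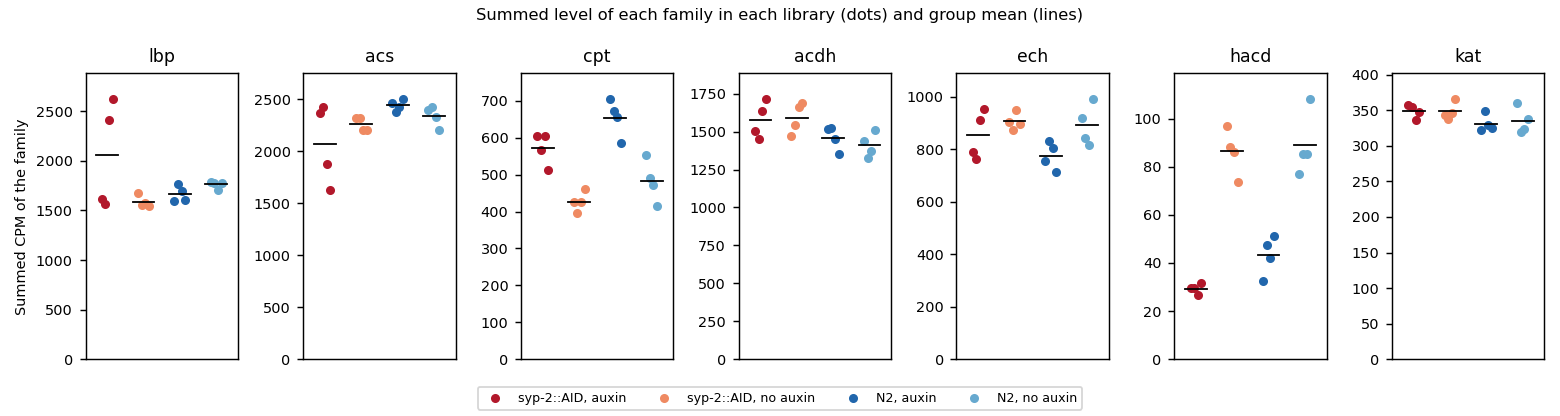
Summed CPM of each family in each library (dots) with the group mean (lines), from left to right in auxin-treated and untreated *syp-2::AID* worms and auxin-treated and untreated N2 worms, each axis starting at 0. Auxin and untreated libraries are separate for *cpt* and *hacd*, and the *lbp* and *acs* sums of auxin-treated *syp-2::AID* worms split into replicates 1 and 2 against 3 and 4.

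Summed over the set, the levels of the groups lay close together. The 60 genes together had 7506 ± 345 CPM in auxin-treated and 7209 ± 63.2 CPM in untreated *syp-2::AID* worms, and 7370 ± 181 CPM in auxin-treated and 7314 ± 179 CPM in untreated N2 worms (SD, n = 4 each), with 7797 and 7807 CPM in the libraries that stood apart and 7266 and 7154 CPM in auxin replicates 1 and 2 of that strain. Levels per kilobase of exon, which allow genes to be compared, were set beside the calls. Over all libraries *lbp-9* was highest at 1733 CPM per kb, followed by *lbp-6* at 602, *ech-6* at 493, *lbp-2* at 411, *acs-13* at 282, *kat-1* at 257 and *acdh-1* at 256 CPM per kb, and none of these 7 rose in either strain. The 8 members with a known length that rose at least 2-fold in *syp-2::AID* worms had a median level of 5.59 CPM per kb in untreated worms (0.268 to 27.6), against 37.3 CPM per kb for the 33 that did not pass. In N2 worms the 7 such members had a median of 4.97 CPM per kb (0.387 to 12.5), against 38.8 for the 40 that did not pass. Members that rose less than 2-fold had higher medians than those that did not pass. These were 63.3 CPM per kb for 10 members in *syp-2::AID* worms and 48.4 CPM per kb for 4 members in N2 worms. For low genes, depth limits the smallest change a test could find, and its part in the low level of the 2-fold class was not tested. The 2 that fell, *hacd-1* and *acdh-1*, had 84.5 and 375 CPM per kb in untreated *syp-2::AID* worms. Spearman's rho between untreated level and log2 fold change was -0.289 in *syp-2::AID* and -0.495 in N2 worms across 53 members. It is a description, since the untreated level enters both measures and the members share their libraries.

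**Figure D4:**
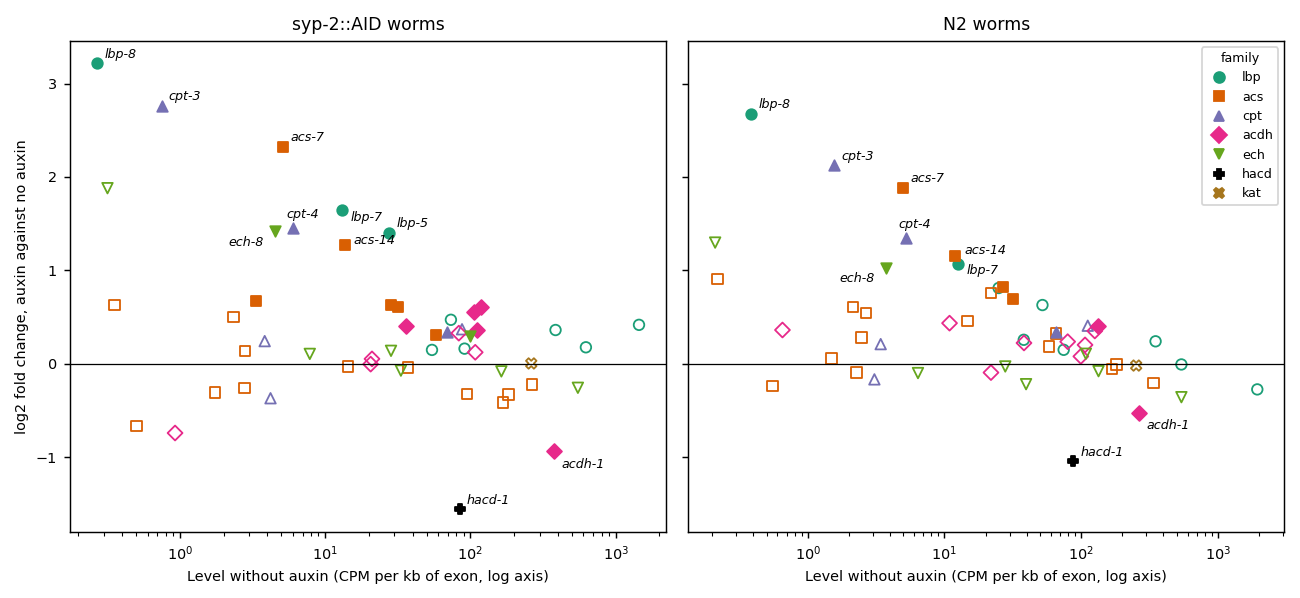
Log2 fold change of auxin-treated over untreated worms against the level in untreated worms (CPM per kb of exon, log axis) for 53 members, in *syp-2::AID* worms (left) and N2 worms (right). Filled symbols passed the test and shapes give the family. The members that rose at least 2-fold lie at or below 27.6 CPM per kb, and *acdh-1* and *hacd-1* are the members that fell.

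Whether the response differed between strains was tested as an interaction. None of the 54 members passed (0 with edgeR, DESeq2 and limma-voom). With edgeR 0.00849% of all genes, 1 of 11776, passed with a larger value in *syp-2::AID* worms and 0.00849% with a smaller one. With DESeq2 131 of all genes (1.11%) passed, and with limma-voom 0. At an unadjusted p under 0.05 in edgeR there were 8 of the 54 members and 2069 of the 11776 genes, so the members' share was no higher than that of all genes. The lowest adjusted p of a member was 0.224 (edgeR). The 7 members called in *syp-2::AID* worms only are thus not shown to respond differently. For the 21 called members the difference between strains ranged from -0.516 (*hacd-1*, 95% interval -0.917 to -0.115) to 0.64 (*cpt-3*, -0.522 to 1.80) on the log2 scale. The interval was narrowest for *cpt-2* (-0.192 to 0.179) and widest for *lbp-8* (-1.02 to 2.1), where a severalfold difference lies within it. The 8 members whose unadjusted interval did not include 0 were *acdh-4* (-1.1, interval -1.98 to -0.222), *acs-2* (-0.80, -1.46 to -0.13), *acs-1* (-0.65, -1.13 to -0.163), *acs-20* (-0.54, -1.01 to -0.0754), *hacd-1*, *acdh-1* (-0.41, -0.825 to -0.00107), *acs-21* (0.59, 0.0792 to 1.11) and *lbp-9* (0.69, 0.19 to 1.19), of which *acs-20* and *acs-21* are named after their values were seen. These differences without replicates 3 and 4 were -1.07, -0.60, -0.29, -0.32, -0.50, -0.57, 0.42 and 0.23 in the same order, and none passed.

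The strains themselves were compared at each condition, and these tests share libraries with those above. Between untreated *syp-2::AID* and untreated N2 worms, 2 members were higher and 0 lower, or 3.70% and 0%, where 0.679% of all genes were higher and 0.195% lower. *lbp-4* had 27, 36.9, 31.7 and 33.5 CPM in untreated *syp-2::AID* worms, against 20.2, 25.1, 22.4 and 22.5 CPM in untreated N2 worms (log2 0.52 ± 0.12, adjusted p = 0.0431, edgeR). *acdh-2* had 33.6, 33.2, 45.4 and 45.2 CPM, against 16.9, 14.3, 19.7 and 30.7 CPM in the same groups (log2 0.95 ± 0.19, adjusted p = 0.0266, edgeR). Neither gene overlapped between the groups, yet both calls were fragile. That of *lbp-4* was lost without any 1 of *syp-2::AID* untreated replicates 2, 3 and 4, N2 auxin replicates 1, 3 and 4 and N2 untreated replicates 1, 2 and 3 (log2 0.44 to 0.57, adjusted p = 0.0541 to 0.161, edgeR). That of *acdh-2* was lost without any 1 of *syp-2::AID* untreated replicates 3 and 4 and N2 untreated replicates 1, 2 and 3 (log2 0.81 to 0.93, adjusted p = 0.0902 to 0.123, edgeR). The count of members was 0 to 4 without 1 library. It was 0 without *syp-2::AID* untreated replicate 3 or 4 or N2 untreated replicate 1, 2 or 3, 1 without *syp-2::AID* untreated replicate 2 or N2 auxin replicate 1, 3 or 4, and 4 without N2 untreated replicate 4. The share of all genes called was 0.218 to 0.384% in the fits with 0 members and 3.64% in the fit with 4. Without the pair of libraries that stood apart, 5 members were higher and 5 lower, where 12.4% of all genes were called.

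Between auxin-treated *syp-2::AID* and auxin-treated N2 worms, 1 member was higher and 0 lower, or 1.85% and 0%, where 0.671% of all genes were higher and 0.382% lower. This was *cpt-5*, with 10.6, 9.03, 10.7 and 11.1 CPM, against 6.71, 6.82, 6.80 and 4.63 CPM (log2 0.73 ± 0.16, adjusted p = 0.0415, edgeR). The groups did not overlap, but the call was lost without any 1 of *syp-2::AID* auxin replicates 3 and 4, *syp-2::AID* untreated replicates 1, 2, 3 and 4, N2 auxin replicates 1, 2, 3 and 4 and N2 untreated replicate 3 (log2 0.61 to 0.78, adjusted p = 0.0505 to 0.112, edgeR), and without the pair of libraries that stood apart (0.65, adjusted p = 0.159, edgeR). The count of members moved most when a *syp-2::AID* auxin library was left out. It was 12 without *syp-2::AID* auxin replicate 1 and 16 without replicate 2, 0 without replicate 3 or replicate 4 and 1 (*acdh-12*) without both of these, 3 without N2 untreated replicate 4, and 0 without any 1 of the *syp-2::AID* untreated replicates, N2 auxin replicates 2, 3 and 4 or N2 untreated replicate 3. The share of all genes called moved as well. It was 17.0% without *syp-2::AID* auxin replicate 1 and 20.1% without replicate 2. Without replicate 3, replicate 4 or both it was 0.285%, 0.31% and 0.435%. With DESeq2's size factors in edgeR, 1 member was higher and 1 (*hacd-1*) lower, and without N2 auxin replicate 1 or with a minimum count of 1 *hacd-1* alone was called.

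Neighbouring pathways were described from lists chosen with earlier results of these data known. Of 14 tested genes of peroxisomal beta-oxidation, 6 rose and 2 fell in *syp-2::AID* worms and 6 rose and 3 fell in N2 worms, with medians of 0.443 and 0.605 on the log2 scale. The acyl-CoA oxidase *acox-3* (F58F9.7, 2.14 and 2.28), the hydratase *maoc-1* (1.53 and 1.35), the thiolase *daf-22* (1.38 and 0.92) and the dehydrogenase *dhs-28* (1.15 and 0.88) rose in *syp-2::AID* and N2 worms. The fallers, named after their values were seen, were *pmp-5* (-1.775 and -1.645), *acox-1.3* (F08A8.3, -0.56 and -0.59) and, in N2 worms, *acox-1.5* (C48B4.1, -0.85). Without replicates 3 and 4, *pmp-4* (0.675) and *acox-1.3* (-0.35) lost their calls in *syp-2::AID* worms, whereas *acox-3* (2.175), *maoc-1* (1.32), *daf-22* (1.24), *dhs-28* (1.04) and *pmp-5* (-2.23) kept theirs. Among 9 tested genes of propionate breakdown outside the families, 0 rose. *mmaa-1* fell in *syp-2::AID* and N2 worms (-0.32 and -0.29, and -0.35 in *syp-2::AID* worms without replicates 3 and 4), and *hphd-1* (Y38F1A.6), a shunt enzyme beside *acdh-1* and *ech-6*, fell in *syp-2::AID* worms (-0.65, adjusted p = 0.004, edgeR; -0.47 without replicates 3 and 4) and had -0.29 in N2 worms.

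Of 9 tested lipolysis genes, 3 rose and 1 fell in *syp-2::AID* worms, and 1 rose and 0 fell in N2 worms. The lipase gene *lipl-2* rose in both (2.59 and 2.16), whereas *lipl-5* (0.56) and *abhd-5.1* (C37H5.2, 1.54) rose and the hormone-sensitive lipase gene *hosl-1* fell (-0.73, and -0.45 without replicates 3 and 4) in *syp-2::AID* worms. *abhd-5.1* lost its call without replicates 3 and 4 (0.70, adjusted p = 0.744, edgeR), whereas *lipl-2* (2.35) and *lipl-5* (0.49) kept theirs. A list of electron transfer genes and the mitochondrial carnitine carrier, in which B0303.3, a thiolase gene, was included, had 7 tested genes. *dif-1*, the carnitine carrier gene, rose in *syp-2::AID* and N2 worms (0.62 and 0.29, and 0.46 in *syp-2::AID* worms without replicates 3 and 4). B0303.3 rose in N2 worms (0.31), and 0 genes of the list fell. Of 6 tested genes for the breakdown of branched-chain amino acids, 1 fell in N2 worms (*bckd-1A*, Y39E4A.3, -0.32), and 0 changed in *syp-2::AID* worms. Of 12 regulators of fat breakdown, only *nhr-49*, a nuclear receptor that acts on beta-oxidation genes, passed, in *syp-2::AID* worms (-0.55, adjusted p = 0.0435, edgeR), and not without replicates 3 and 4 (-0.21, adjusted p = 0.204, edgeR).

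Some members overlap other genes, and whether the counting used strand, or how it treated reads that match several family members, is not given in the sources used here. Among those called, *ech-4* shares 17 exon bases with R06F6.12, which had 14951 reads over all libraries against 35870 for *ech-4*. The partners of *acs-7*, *acs-22*, *ech-8*, *acdh-12* and *acdh-2* had 43, 3, 1, 345 and 18 reads over all libraries. Of the members that did not pass, *acs-9* shares 228 bases with T20F7.1, which had 7996 reads against 190, *ech-3* shares 123 bases with F43H9.3 (1806 against 1835 reads) and *acdh-3* shares 92 with *knl-2* (33806 against 41234), so that their values are uncertain.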

How the data were processed

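Whole worm RNA from 16 libraries was measured by RNA-seq. The authors deposited counts of reads per gene, which they made with bcl2fastq 2.1.7, TopHat2 2.0.11 on the ce10 genome and featureCounts. No column of the authors' own comparisons was used. Counts were tested as deposited with edgeR 4.0.16 in R 4.3.3 (TMM factors, filterByExpr with a minimum count of 10, robust quasi-likelihood fit over all 16 libraries as 4 groups, no block, Benjamini-Hochberg adjustment over 11776 genes, threshold 0.05). CPM use the same factors. Exon lengths came from the WBcel235 annotation, and 59 members had one. Rows matched the rule by name. The members and lists were chosen with earlier results of these data known. Named with full values are members past the threshold in any comparison and the most abundant member per kb of each family, with up to 4 further members of a family by mean CPM, and up to 4 genes of a list by adjusted p. The scripts were tested on simulated counts with 200 changed genes. Alternatives were DESeq2 1.42.0, limma-voom (limma 3.58.1), DESeq2's size factors in edgeR, a minimum count of 1, a replicate block, only the groups compared, and leaving out each library. The minimum count of 1 replaced filterByExpr by at least 1 read summed over all 16 libraries (20234 genes). A pair was added after seeing the data: leaving out the pair of libraries that stood apart, and removing each library's trend with exon length. The smallest fold change a test could find is limited by 4 replicates and, for low genes, by depth.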

Additional observations from a re-analysis of the deposited data

Results flagged for a closer look

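For 30 members, the 4 libraries of each group were examined for a library far from the other 3, in 120 groups. Dixon's 95% limit for 4 values was passed in 8 of these groups, and chance alone flags about 1 group in 20. In untreated *syp-2::AID* worms, *lbp-7* had 8.56 CPM in replicate 4, against 6 to 6.22 CPM in the others, *cpt-5* had 10.3 CPM in replicate 3, against 8.11 to 8.26 CPM, *ech-4* had 131.5 CPM in replicate 1, against 123.5 to 124.5 CPM, and *acdh-7* had 129.0 CPM in replicate 2, against 145.4 to 148.2 CPM. In auxin-treated *syp-2::AID* worms, *ech-1* had 4.80 CPM in replicate 4, a library that stood apart, against 2.90 to 3.21 CPM. In auxin-treated N2 worms, *cpt-5* had 4.63 CPM in replicate 4, against 6.71 to 6.82 CPM. In untreated N2 worms, *cpt-4* had 21.1 CPM in replicate 1, against 8.35 to 9.98 CPM, and *acdh-12* had 207.0 CPM in replicate 4, against 220.7 to 222.6 CPM.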

How the results depend on the processing

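Of the members called in the main test, 14 of 21 in *syp-2::AID* worms and 11 of 14 in N2 worms kept their call under all 24 alternatives, and all of them kept their sign. The count of 21 ranged from 18 to 28 without 1 library and was 15 with a minimum count of 1, 14 with only the groups compared, 20 with a replicate block and 23 with the exon length trend removed. The share of all genes called in *syp-2::AID* worms ranged from 4.24 to 26.5% without 1 library, with 23.1% without auxin replicate 1 and 26.5% without replicate 2. In the other 4 fits it was 3.32%, 3.48%, 5.57% and 8.36% in the same order. The count of 14 ranged from 11 to 18 without 1 library, and was 22 with only the groups compared and 23 without the pair of libraries that stood apart. Of all genes, 3.48 to 6.28% were called in N2 worms without 1 library, 11.1% with only the groups compared and 12.9% without the pair. The count of 2 between untreated strains ranged from 0 to 4 without 1 library, and was 4 with DESeq2, 1 with limma-voom, 1 with a replicate block, 10 without the pair of libraries that stood apart and 7 with the length trend removed. The share of all genes called there ranged from 0.218 to 3.64% without 1 library. It was 4.89% with DESeq2, 12.4% without the pair and 4.73% with the length trend removed. The count of 1 between auxin-treated strains ranged from 0 to 16 without 1 library, and was 2 with DESeq2's size factors, 10 with DESeq2, 0 with a replicate block, 0 with only the groups compared and 3 with the length trend removed. Of all genes, 0.176 to 20.1% were called there without 1 library, 6.84% with DESeq2 and 2.27% with the length trend removed. The count of 0 for the difference between strains was 0 under every alternative. The sources used here do not say that a replicate number marks a shared batch. Correlations of same-numbered deviations from the group means ran from -0.389 to 0.353, and those of differently numbered ones from -0.465 to 0.514. Such values cannot show whether the numbers pair the samples, since deviations within a group sum to 0. The block gave 13 members in N2 worms, where 4.25% of all genes were called. The cause of these shifts was not tested. At 4 libraries a group, members with few reads, such as *lbp-8*, *ech-9* and *acs-6*, had the widest intervals.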
